A study of Mus musculus with 3 samples.

Results

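Pericentral hepatocytes, the liver parenchymal cells that border the central vein, were picked out of the single-cell transcriptomes by their own transcript counts. A cell was taken where at least 5% of its UMIs (unique molecular identifiers, 1 for each captured transcript) came from the 5 hepatocyte genes Alb, Apoa1, Apoa2, Ttr and Fabp1. It also needed at least 3 UMIs of the 6 pericentral genes Cyp1a2, Cyp2c29, Cyp2c37, Cyp2a5, Gulo and Oat together, and at least 2 times as many as of the 4 periportal genes Cyp2f2, Hal, Sds and Aldh1b1. Cells further had 200 to 4000 genes, at least 500 UMIs, at most 25% of UMIs from mitochondrially encoded genes, no UMI of the leukocyte gene Ptprc, and at most 2 UMIs of Clec4f, Vsig4 and Ptprb. This gave 66 cells of 52335 in all, 8 of 30734 in one library and 58 of 21601 in the other.

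Both libraries were whole transcriptomes of mouse liver cells on the BD Rhapsody system. The first carries the title MCD, which in the study stands for a methionine-choline deficient diet, while its file header calls it APAP0h. Besides HFHC mice, the study describes single-cell data only of wild-type mice on a normal chow diet (NCD) for 16 weeks. The diet behind this first library is therefore uncertain, and it is called the MCD-titled library here. The other holds WT (wild-type) and Chil1-/- mice (Chi3l1-/- in the study, a constitutive knockout) given the high-fat, high-cholesterol (HFHC) diet over 16 weeks in a single pool, with no genotype attached to any cell, and is called the HFHC pool. All mice had a C57BL/6J background, and the number of animals, their age and their sex are not given for these libraries in the sources used here. The labels speak of parenchymal cells whereas the study's methods describe non-parenchymal cells freed with collagenase and cleared of hepatocytes by centrifugation. Of 36167 cells passing the limits on genes, UMIs and mitochondrial share 722 (350 and 372) met the hepatocyte criterion. A further 2438 and 5355 met the other limits with 2 to 5% of UMIs from the 5 hepatocyte genes, so that the 722 depend on the limit of 5%. With 1 library per group no test was made: diet, genotype, capture and library cannot be told apart, and all intervals given are exact 95% intervals that cover counting error only.

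Blood enters the liver lobule at the portal tract and leaves at the central vein, and hepatocytes along this path divide the work of the organ. Periportal cells, in oxygen-rich blood, are known for urea synthesis, gluconeogenesis and amino acid breakdown. Pericentral cells are known for cytochrome P450 enzymes that oxidise drugs and steroids, for glutathione conjugation and bile acid synthesis, and, in the layer touching the vein, for glutamine synthetase, which captures ammonia that the urea cycle left over. Wnt signals from the endothelium of the central vein maintain this programme through beta-catenin.

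The promoters of 6 genes that carry the pericentral description are shown first, because the description below rests on these genes. Each line gives the 250 bases before the RefSeq transcript start in build GRCm38.p6, 5′ to 3′ on the strand of the gene, with matches to 4 motifs in capitals. Both strands were searched for CTTTGAT, the core bound by the TCF/LEF partners of beta-catenin. They were also searched for CAAAGTCCA, to which HNF4 binds. The core of the xenobiotic response element, GCGTG, was the next motif. TATAAA, the TATA box, was the last. Glul (chr1:153899679-153899928, plus strand) encodes glutamine synthetase. Oat (chr7:132576399-132576648, minus strand) encodes ornithine aminotransferase. Cyp2e1 (chr7:140763569-140763818, plus strand) oxidises ethanol and acetaminophen. Cyp1a2 (chr9:57683656-57683905, minus strand) oxidises caffeine. Cyp2c29 (chr19:39286835-39287084, plus strand) and Cyp3a11 (chr5:145879855-145880104, minus strand) oxidise drugs and endogenous lipids.
Glul: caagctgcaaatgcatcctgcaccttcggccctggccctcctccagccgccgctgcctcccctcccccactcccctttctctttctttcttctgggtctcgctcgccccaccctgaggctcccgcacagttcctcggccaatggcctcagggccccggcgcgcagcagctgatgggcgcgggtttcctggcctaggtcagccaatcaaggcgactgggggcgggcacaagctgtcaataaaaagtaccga
Oat: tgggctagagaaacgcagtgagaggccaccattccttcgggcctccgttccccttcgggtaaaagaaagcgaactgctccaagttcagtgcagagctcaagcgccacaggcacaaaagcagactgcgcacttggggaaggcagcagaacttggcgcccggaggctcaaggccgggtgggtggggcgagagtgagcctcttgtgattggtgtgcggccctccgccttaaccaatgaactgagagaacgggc
Cyp2e1: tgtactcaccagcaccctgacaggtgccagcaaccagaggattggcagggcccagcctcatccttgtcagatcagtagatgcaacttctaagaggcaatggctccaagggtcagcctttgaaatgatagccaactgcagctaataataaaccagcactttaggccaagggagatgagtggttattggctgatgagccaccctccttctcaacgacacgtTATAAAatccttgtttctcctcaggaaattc
Cyp1a2: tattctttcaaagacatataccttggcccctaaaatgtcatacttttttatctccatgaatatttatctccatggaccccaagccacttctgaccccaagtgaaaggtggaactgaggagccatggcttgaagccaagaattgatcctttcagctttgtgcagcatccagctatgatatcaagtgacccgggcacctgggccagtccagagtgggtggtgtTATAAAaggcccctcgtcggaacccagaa
Cyp2c29: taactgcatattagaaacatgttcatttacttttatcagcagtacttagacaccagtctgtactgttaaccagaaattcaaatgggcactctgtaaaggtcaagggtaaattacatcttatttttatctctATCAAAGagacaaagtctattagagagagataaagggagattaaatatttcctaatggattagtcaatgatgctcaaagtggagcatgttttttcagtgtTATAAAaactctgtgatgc
Cyp3a11: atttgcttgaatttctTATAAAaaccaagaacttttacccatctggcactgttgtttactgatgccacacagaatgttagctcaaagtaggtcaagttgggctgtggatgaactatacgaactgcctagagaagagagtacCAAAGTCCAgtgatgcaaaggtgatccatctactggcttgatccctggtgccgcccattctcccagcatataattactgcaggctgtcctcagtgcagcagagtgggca
TATAAA stood 31 bases before the start of Cyp2e1, 29 before Cyp1a2, 19 before Cyp2c29 and 234 before Cyp3a11. The promoter of Cyp2c29 held ATCAAAG, the reverse complement of CTTTGAT, 119 bases before its start, and that of Cyp3a11 held CAAAGTCCA at 109 bases. None of the 4 motifs was found in the windows of Glul and Oat. Among 32851 RefSeq promoter windows of this length, 12.4% held TATAAA, 3.21% CTTTGAT, 0.384% CAAAGTCCA and 28.2% GCGTG, on either strand. The annotations RefSeq and GENCODE place the start of Cyp2c29 17680 bases apart, that of Cyp3a11 110, that of Cyp2e1 80 and that of Cyp1a2 48. The GENCODE start lies upstream in each, so that the motifs at 109 bases in Cyp3a11, 31 in Cyp2e1, 29 in Cyp1a2 and both of Cyp2c29 lie inside the GENCODE gene.

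The pericentral cells were shallow. Their UMIs per cell ranged from 518 to 4818 with a median of 1346.5 in the MCD-titled library, and from 537 to 5169 with a median of 1027 in the HFHC pool. The median number of genes was 646 and 558.5. Together the 8 cells held 13483 UMIs and the 58 cells 77956. A single cell of 4818 UMIs held 35.7% of the UMIs of the 8 cells of the MCD-titled library, and it was also the cell with the most periportal UMIs, 11 beside 24 pericentral ones. The deepest cell of the HFHC pool held 6.63% of the UMIs of the 58 cells. The 5 hepatocyte genes took a median of 6.31% and 5.64% of a member's UMIs, with Alb the leading gene in both (484 UMIs, 3.59%, and 2228 UMIs, 2.86%).

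Pericentral cells made up a small part of the hepatocytes in the MCD-titled library and a larger one in the HFHC pool. They were 8 of 350 hepatocytes, or 2.29% (0.992 to 4.45), in the first and 58 of 372, or 15.6% (12.1 to 19.7), in the second, while the mirror-image criterion found 154 and 103 periportal hepatocytes. The remaining 188 and 211 hepatocytes met neither. The gap depended on the hepatocyte criterion. Where 2% of UMIs from the 5 hepatocyte genes sufficed, a limit added after seeing the data, pericentral cells were 10.4% of 2788 hepatocytes in the MCD-titled library and 18.1% of 5727 in the HFHC pool. With every cell thinned to 1000 UMIs the shares were 3.85% of 182 and 12.2% of 197. Where 10% was asked of the hepatocyte genes, 3 and 23 hepatocytes remained, and none was pericentral.

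**Figure D1:**
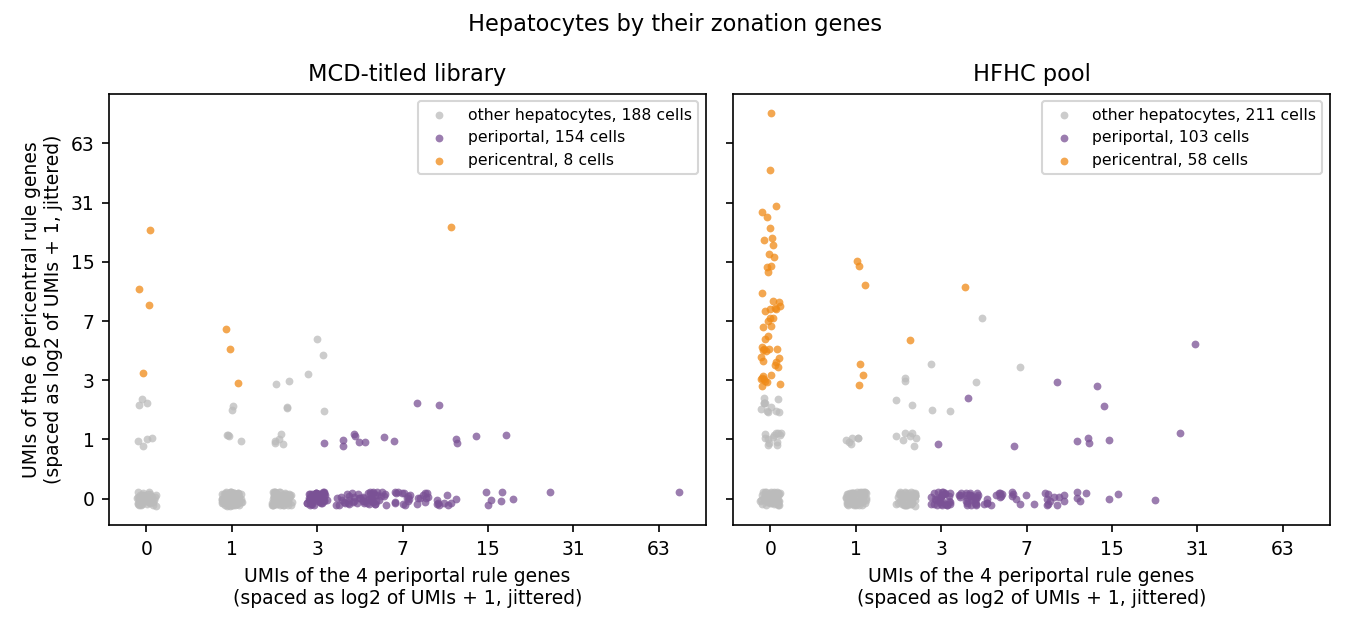
Each point is a hepatocyte, placed by its UMIs of the 4 periportal rule genes (x axis) and of the 6 pericentral rule genes (y axis), both spaced as log2 of UMIs + 1 and jittered. Of the pericentral cells (orange) 4 of 8 and 50 of 58 lie at 0 periportal UMIs, with 1 cell of the MCD-titled library at 11 and 24, periportal cells are purple, and other hepatocytes (grey) carry few UMIs of either set.

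These values set who was counted and are description only. In both libraries a member had a median of 7 pericentral UMIs. At the edge of the criterion, 2 members in the MCD-titled library and 11 in the HFHC pool had exactly 3 pericentral UMIs, while 5 and 11 hepatocytes just outside had 2. A further 5 and 9 hepatocytes had at least 3 but too many periportal UMIs. No periportal UMI was seen in 4 of the 8 and 50 of the 58 members. The lowest hepatocyte share inside was 5.02% and 5.01% and the highest outside in the MCD-titled library 4.97%, and 42 of the 58 members in the HFHC pool lay between 5% and 6%. Because so many cells lay under that edge, 281 and 976 cells that met every other criterion with a hepatocyte share of 2 to 5% are given beside the members as a second reading. These outer pericentral cells held 304054 and 1800471 UMIs.

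The 6 genes of the criterion were not spread evenly over the members. Cyp1a2 was seen in all 8 members of the MCD-titled library, with 32 UMIs, and in 28 of 58 members of the HFHC pool, with 59. Cyp2c29 was seen in 7 of 8 cells with 22 UMIs, and in 49 of 58 with 272. Its median over cells was 1.63 UMIs per 1000 of the cell's UMIs in the MCD-titled library and 3.09 in the HFHC pool, where it reached 15.2. Oat contrasted with them, with 2 UMIs in 2 of 8 cells and 148 UMIs in 40 of 58 cells, where it reached 12.1 per 1000. Cyp2c37, an epoxygenase of arachidonic acid, gave 7 UMIs in 3 cells and 101 in 30. Gulo, the last enzyme of vitamin C synthesis, gave 13 UMIs in 5 cells and 35 in 22, and Cyp2a5, a coumarin hydroxylase, 4 UMIs in 3 cells and 28 in 16. By UMIs Cyp1a2 and Cyp2c29 led in the MCD-titled library, and Cyp2c29 and Oat in the HFHC pool.

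**Figure D2:**
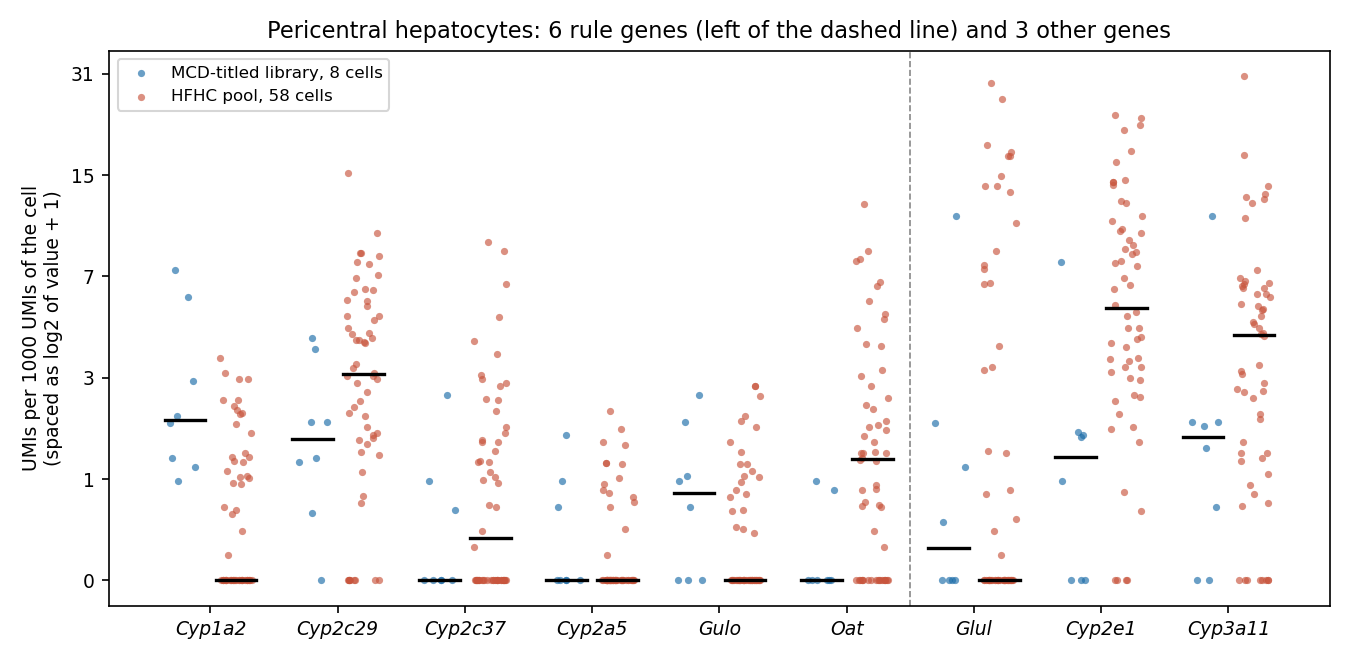
Each point is a member; the y axis gives its UMIs of the gene per 1000 UMIs of the cell, spaced as log2 of the value + 1, and bars mark medians. Left of the dashed line stand the 6 genes of the criterion and right of it Glul, Cyp2e1 and Cyp3a11; Glul is at 0 in 32 of the 58 cells of the HFHC pool and reaches 29.0 per 1000, whereas Cyp2e1 is seen in 54.

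The label was checked on pericentral genes that the criterion did not use. Cyp2e1 gave 23 UMIs in 5 of 8 members of the MCD-titled library and 572 UMIs in 54 of 58 members of the HFHC pool, with a median of 5.43 per 1000 UMIs and a maximum of 23.1 in the latter. Glul gave 17 UMIs in 4 cells, 13 of them in a single cell, and 313 UMIs in 26 cells. Slc1a2, the glutamate transporter of the cells around the vein, was at 0 UMIs in the MCD-titled library and gave 15 UMIs in 5 cells of the HFHC pool. Among the genes of the Wnt pathway that mark this layer, Lgr5 and Rhbg had no UMI in any member, Axin2 had 1 in the HFHC pool and Tbx3 had 1 in the MCD-titled library. A count of 0, taken as fewer than 3 counts, allows up to 222.5 CPM (UMIs scaled to a common library total) in the summed UMIs of the 8 cells and 38.5 CPM in those of the 58. Lgr5 and Rhbg were therefore not detectable at this depth, and single UMIs of Axin2 and Tbx3 give no level. In the outer pericentral cells of the HFHC pool Slc1a2 gave 261 UMIs, Tbx3 86, Nkd1 27, Axin2 16, Lgr5 3 and Rhbg 3.

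To compare shares of cells with a UMI, each cell was thinned to 1000 UMIs, which left out 2 of 8 and 27 of 58 members. B cells, a cell type other than hepatocytes, are given beside the members (1491 and 966 cells, median 1436 and 2807.5 UMIs). Cyp2e1 was then seen in 4 of 6 members of the MCD-titled library (66.7%, 22.3 to 95.7; 62.5% unthinned) and in 2.63% of B cells. In the HFHC pool it was seen in 30 of 31 members (96.8%, 83.3 to 99.9; 93.1% unthinned), and in 5.30% of B cells. Cyp3a11 was seen in 80.6% of the thinned members of the HFHC pool (86.2% unthinned) and in 1.14% of B cells. For Glul members and B cells lay closer, at 29.0% (14.2 to 48.0; 44.8% unthinned) of members and 13.3% of B cells in the HFHC pool. In the MCD-titled library it was seen in 2 of 6 members (33.3%, 4.33 to 77.7, and 4 of 8 unthinned) and in 17.1% of B cells, so that the presence of a Glul UMI by itself did not set these members apart from B cells. Thinned periportal hepatocytes showed Glul in 6.42% of cells in the MCD-titled library and 7.14% in the HFHC pool. Both lie below B cells, so that B cells are no measure of a lack of Glul.

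The first comparison asks which genes outside the criterion go with the pericentral and which with the periportal end of the lobule, within each library. For each zone the UMIs of a gene were added up over its cells and expressed as CPM. The log2 ratio of the zones was formed after adding 1 UMI to either sum, for genes that reached 100 UMIs over both zones. The added UMI weighs more in the smaller pericentral sum, so that ratios from few UMIs there lean upward. In the HFHC pool 26 of 481 genes (5.41%) were at least 2-fold higher and 40 (8.32%) at least 2-fold lower in pericentral cells, and in the MCD-titled library 28 of 424 (6.6%) and 36 (8.49%). The median gene lay at -0.11 and -0.07. Of the 36 lower genes in the MCD-titled library 4 had no UMI in the 8 members, and set at the limit that 3 counts allow, 1 of these 4 stayed past 2-fold. Because the zones were chosen by counts in the same cells, these ratios describe the zones and do not test them. Of the 26 genes higher in the HFHC pool all 26 had the same sign in the outer cells, 19 of them past 2-fold, while of the 40 lower ones 26 did and 13 were past 2-fold. In the MCD-titled library 23 of 28 and 28 of 36 had the same sign there, and 6 and 7 were past 2-fold. Over all genes of the outer cells 5.6% of 5852 were at least 2-fold higher and 2.08% lower in the HFHC pool, and 2.3% of 2042 and 2.06% in the MCD-titled library.

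Many cytochrome P450 genes were higher in the pericentral cells. Outside the criterion 7 of 8 tested genes of this list were at least 2-fold higher in the MCD-titled library, with a median log2 ratio of 1.30, where 6.6% of all genes were. In the HFHC pool 5 of 9 were, with a median of 1.04, where 5.41% of all genes were. None was at least 2-fold lower in either. Of the 8 in the MCD-titled library 6 were past 2-fold without the deepest member, and 5 without the cell of 1173 UMIs described below. By CPM alone, with no UMI added, Cyp2d26 and Cyp2c70 lay just under 2-fold there, from 11 and 14 UMIs in the members. Among the outer cells 4 of 14 and 15 of 24 were at least 2-fold higher and none lower, where 2.3% and 5.6% of all genes were higher. Cyp2e1 stood at 7337 CPM (6748 to 7964) in pericentral and 131 CPM (87.9 to 188) in periportal cells of the HFHC pool, a log2 ratio of 5.76 (5.27 to 6.40), and in the MCD-titled library it gave 23 and 10 UMIs, too few for the filter. Cyp3a11, which is induced through the xenobiotic receptor PXR, stood at 5016 against 58.8 CPM in the HFHC pool (6.31, 5.62 to 7.34) and at 2225 (1501 to 3176) against 612 CPM (525 to 710), 3.73-fold, in the MCD-titled library. The outer cells gave log2 ratios of 4.53 and 2.71. The ratio was larger in the HFHC pool in both readings, a difference that was not tested. Cyp2c50, a relative of Cyp2c29, was higher at 3.67 in the HFHC pool (138 against 30 UMIs), but part of its end is shared with Cyp2c37, a gene of the criterion. Cyp4a10, a fatty acid hydroxylase, was higher at 1.82 there (60 against 48 UMIs). Cyp2d9, a steroid hydroxylase of male liver, was past 2-fold in both libraries at 1.51 and 1.04. Cyp2c70, which makes muricholic acids, stood at 1.08 (0.62 without the deepest member) and 0.75, and Cyp2j5, an epoxygenase, at 1.14 and 0.99. Cyp2d26 went opposite ways, at 1.05 (-0.11 to 1.82) in the MCD-titled library and -0.70 (-1.50 to -0.06) in the HFHC pool, with -0.07 and 1.31 in the outer cells. The cell of 1173 UMIs in the MCD-titled library held 13 of the 30 UMIs of Cyp3a11 and 9 of the 19 of Cyp2d9 there, and without it Cyp3a11 stood at 1.25 in place of 1.90 and Cyp2d9 at 0.78. In the HFHC pool Cyp2d9 stood at 0.87 without the cell that held 7 of its 57 UMIs.

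Glul, the ammonia-capturing enzyme of the innermost layer, was among the genes with the largest zone ratios in the HFHC pool. It stood at 4015 CPM (3583 to 4485) in pericentral and at 21 UMIs (58.8 to 145 CPM) in periportal cells of the HFHC pool, a log2 ratio of 5.34, and at 1261 CPM (734 to 2019) and 70.0 CPM (42.7 to 108) in the MCD-titled library. Glul had only 37 UMIs over both zones of the MCD-titled library, under the filter, and without the cell of 1173 UMIs, which held 13 of the 17 in the members, 4 UMIs remained, or 325 CPM (88.5 to 832). In B cells it stood at 199 and 294 CPM, so that the level in the 8 members rests on 1 cell. In the outer pericentral cells it was higher than in the members, at 7070 and 6722 CPM. Over the list of pericentral genes in the HFHC pool, 10 of 15 tested genes outside the criterion were at least 2-fold higher and none lower, with a median of 1.54, where 5.41% of all genes were higher. Rgn, which encodes regucalcin, a lactonase on the path to vitamin C, stood at 3.61 there, and Rnase4, a secreted ribonuclease, at 3.71. Slco1b2, which takes bile acids and drugs up from blood, stood at 1.79, and the glutathione transferases Mgst1 and Gsta3 at 1.54 and 1.06. In the MCD-titled library 3 of 7 genes of the list were at least 2-fold higher, where 6.6% of all genes were, with a median of 0.95: Cyp3a11, Gstm1 at 1.12 (0.44 without the cell that held 37 of its 82 UMIs) and Aldh1a1, a retinaldehyde dehydrogenase, at 1.70 (1.19 in the HFHC pool).

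**Figure D3:**
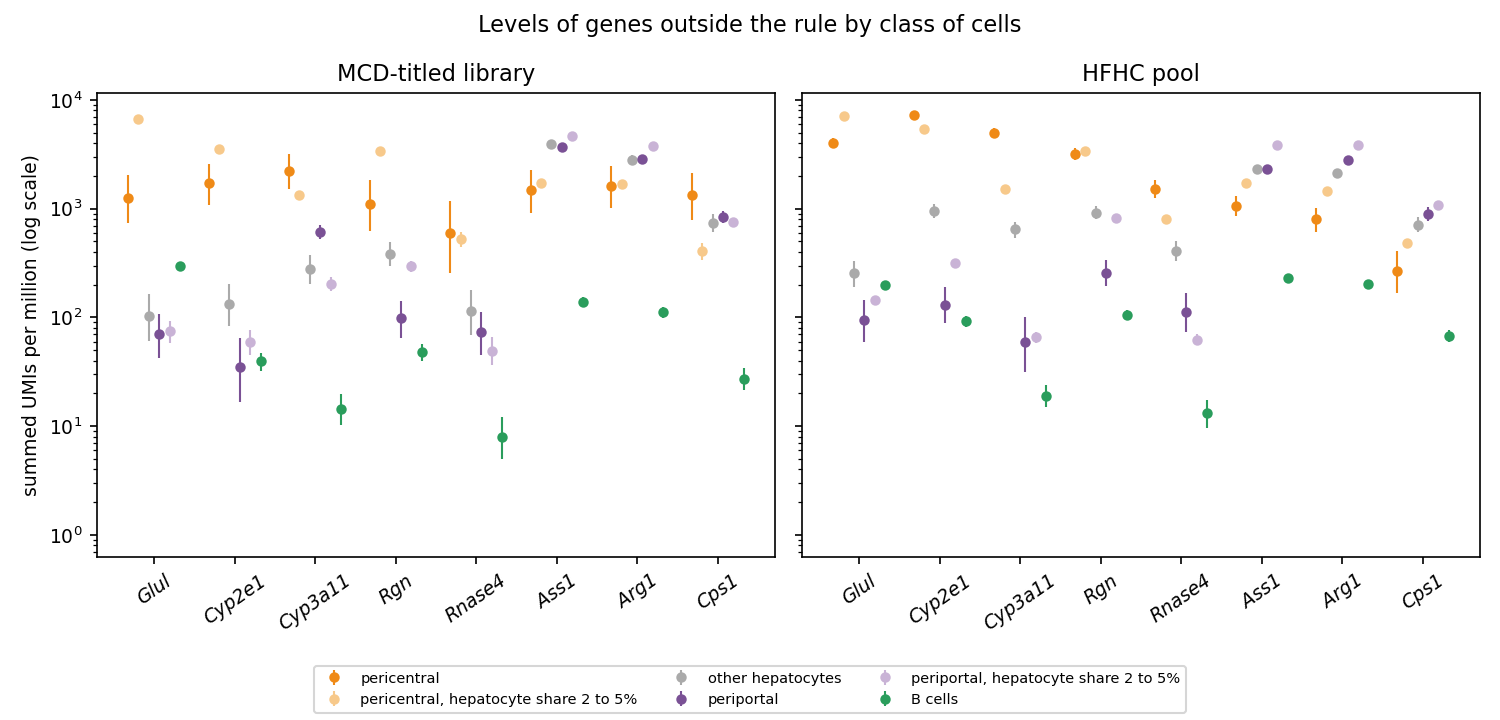
Summed CPM (log scale) of 8 genes outside the criterion are given by class of cells with exact 95% counting intervals, for the MCD-titled library (left) and the HFHC pool (right). Glul, Cyp2e1, Cyp3a11, Rgn and Rnase4 are highest in the pericentral classes, while Ass1 and Arg1 are highest in the periportal classes and other hepatocytes; Cps1 is lower in the pericentral members of the HFHC pool and not in those of the MCD-titled library.

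Of the major urinary protein genes, whose products carry pheromones in mouse urine, single copies differed between zones and others did not. In the MCD-titled library 3 of 9 tested Mup genes were at least 2-fold higher in pericentral cells and 2 lower, beside 6.6% and 8.49% of all genes. The HFHC pool gave 3 of 6 higher and 1 lower, beside 5.41% and 8.32%. These genes were counted together after their values were seen. Mup3, the copy with most UMIs in the members of the MCD-titled library, stood at -0.08 and 0.19, and Mup7 at -0.20 and 2.91. Mup17 gave 7788 CPM in pericentral and 339 CPM in periportal cells of the MCD-titled library (log2 ratio 4.52) and 2578 against 67.9 CPM in the HFHC pool (5.16). Mup11 gave ratios of 2.97 and 5.94. Of the 105 UMIs of Mup17 in the MCD-titled library 62 came from a single cell, and so did 54 of the 116 of Mup11. This cell had 1173 UMIs in all, and without it the ratios there were 3.38 for Mup17 and 2.21 for Mup11. Mup20, by contrast, was lower in pericentral cells of the MCD-titled library (-1.44, -1.74 to -1.19) and near even in the HFHC pool (0.29, 0.22 to 0.37), where a single cell gave 308 of its 2092 UMIs. Copies of these genes are nearly identical: 72.4% of the 50-base words in the last 400 bases of Mup11, 59.5% in Mup17 and 28.5% in Mup20 occur in other genes, so that the counts of single copies are uncertain. The same holds for 17.4% of those of Cyp2c37, 23.1% of Cyp2c50, 33.0% of Cyp2d26, 26.8% of Cyp2d9 and 24.2% of Cyp2e1, and for under 5% of those of Glul, Oat, Cyp3a11, Cyp1a2 and Cyp2c29. The shared words of Cyp2c50 occur in Cyp2c37 and Cyp2c54. Its counts may thus hold reads of Cyp2c37, a gene of the criterion.

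Several urea cycle and amino acid genes lay on the other side. Ass1, which joins citrulline and aspartate in the urea cycle, was lower in pericentral cells of both libraries, at 1483 against 3726 CPM (-1.26, -2.05 to -0.69) in the MCD-titled library and 1065 against 2326 CPM (-1.11, -1.48 to -0.79) in the HFHC pool. Arg1, the arginase that releases urea, stood at -0.75 and -1.81. Cps1, the entry enzyme of the cycle, stood at -1.67 in the HFHC pool with 21 UMIs in the pericentral cells, and at 0.75 (-0.10 to 1.37) with 18 in the MCD-titled library. In the outer cells Cps1 was lower in both, at -0.86 and -1.18. Pck1, which starts gluconeogenesis, stood at -0.36 and -1.62. Of the periportal genes outside the criterion 4 of 18 tested were at least 2-fold lower in the MCD-titled library, with a median of -0.58, and none was 2-fold higher. With Hsd17b13 and Gls2 at the limit of 3 counts, 2 of the 18 were past 2-fold there and the median stayed at -0.58. At the same limit 33 of all 424 genes were lower, a share near that of the list. In the HFHC pool 9 of 15 were lower and none higher, with a median of -1.23, where 8.32% of all genes were lower. Among the outer cells 12 of 20 and 16 of 24 were at least 2-fold lower and none higher, where 2.06% and 2.08% of all genes were lower. Hsd17b13, a lipid droplet enzyme, had no UMI in the 8 members against 124 in periportal cells of the MCD-titled library, and 7 against 126 in the HFHC pool (-2.49). Gls2, the liver glutaminase, had no UMI against 118, and 4 against 64. Aox3, an aldehyde oxidase, stood at -1.60 and -1.30, and Gamt, which completes creatine synthesis, at -1.02 (-4.66 to 0.29) and -1.11, although Gamt was at 0.14 in the outer cells of the MCD-titled library.

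Over the 375 genes tested in both libraries, 226 had the same sign. At least 2-fold higher in both were 6 genes, of 22 in the MCD-titled library and 14 in the HFHC pool: Mup17, Mup11, Cyp3a11, Aldh1a1, Mbl2 and Cyp2d9. Mbl2, the mannose-binding lectin, stood at 1.11 and 1.57. Without the cell that held 7 of its 15 UMIs in the MCD-titled library Mbl2 stood at 0.45 there, so that Mbl2 and Cyp2d9 pass 2-fold in that library through 1 cell each. At least 2-fold lower in both were 4, of 32 and 34: Hsd17b13, Aox3, Ass1 and Gamt, where Hsd17b13 rests on 0 UMIs in the MCD-titled library, a fold of at least 1.95 at the limit of 3 counts. Aox3 and Gamt rest on 2 UMIs each in the members of that library. Among the next genes by the smaller of their 2 ratios were Mgst1, Nrn1 and Cyp2c70 on the pericentral side and Aldh1l1, Echs1, Uroc1, Aldh9a1 and Rida on the periportal side. Rida, which clears reactive imines, gave -1.78 and -0.78, and Uroc1, a histidine-degrading enzyme, -0.87 and -1.28. For 5 genes the ratios were past 2-fold in opposite directions, 3 of them mitochondrially encoded.

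**Figure D4:**
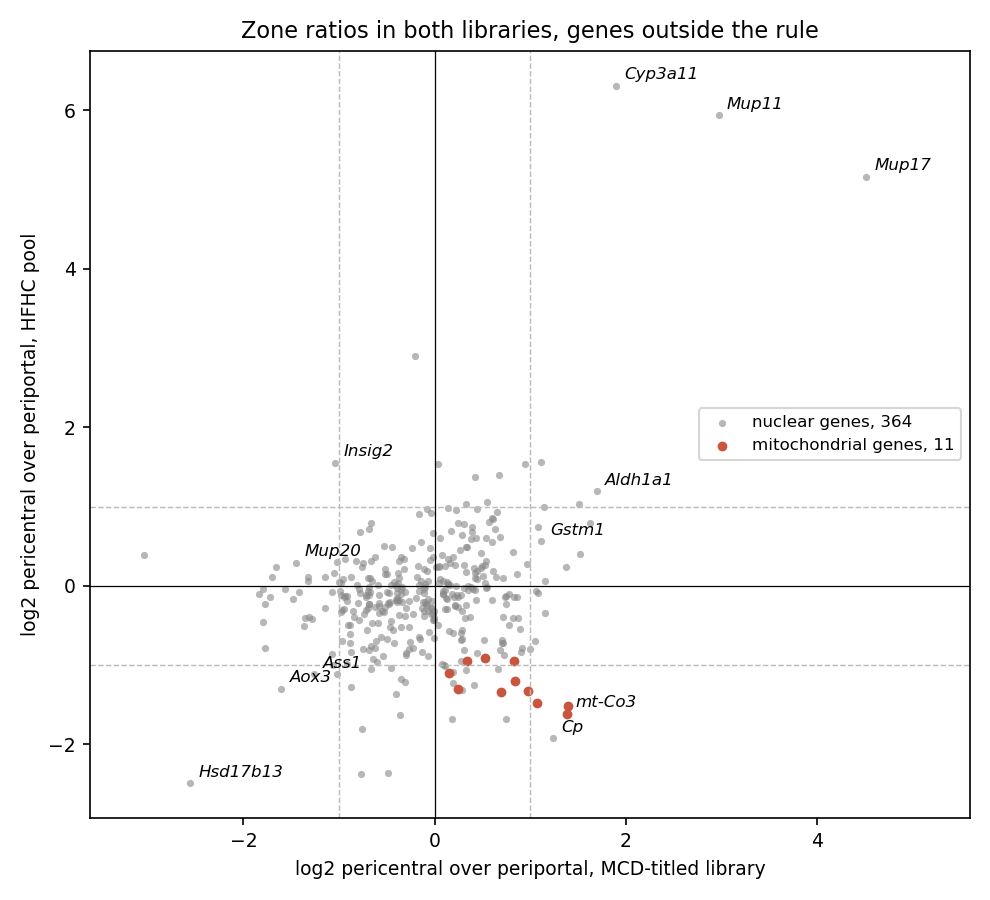
Each point is 1 of 375 genes outside the criterion with at least 100 UMIs over the 2 zones in both libraries; x and y axes give the log2 ratio of pericentral over periportal cells in the MCD-titled library and in the HFHC pool, and dashed lines mark 2-fold. Cyp3a11, Mup11, Mup17 and Aldh1a1 lie high in both and Hsd17b13 low in both, while the 11 mitochondrially encoded genes (red) lie above 0 on the x axis and below 0 on the y axis.

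Mitochondrially encoded transcripts went opposite ways. In pericentral members of the MCD-titled library they took a median of 9.26% of a cell's UMIs (1.93 to 20.3) against 4.38% in periportal hepatocytes, and in the HFHC pool 0.546% (0 to 12) against 0.608%. Their summed level was 131054 against 76381 CPM in the first and 12661 against 30436 CPM in the second, log2 ratios of 0.78 and -1.26. Without the deepest member, which had 20.3%, the ratio of mt-Co1 in the MCD-titled library was 0.37 in place of 0.98 and that of mt-Nd3 0.01 in place of 1.40. In the outer cells the summed ratio was 0.25 and 1.41, so that the direction in the HFHC pool did not hold there. B cells had 10.5% and 10.2%. Malat1, a nuclear RNA abundant in intact cells, gave 148 CPM (2 UMIs) and 205 CPM (16 UMIs) in the members and 1926 and 2323 CPM in B cells. The part of cell integrity in these values was not tested.

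The second comparison sets the 58 pericentral cells of the HFHC pool against the 8 of the MCD-titled library, to describe how this cell type differs between the libraries. Over 115 genes reaching 100 UMIs together, 32 (27.8%) were at least 2-fold higher and 21 (18.3%) at least 2-fold lower in the HFHC pool, around a median of 0.27. Unlike the zone counts, the library counts take in genes of the criterion, whose UMIs helped to choose the cells. Oat, Fabp1, Cyp2c37 and Cyp2c29 are among the 32. In the outer pericentral cells, with far more UMIs, 182 (5.86%) and 126 (4.05%) of 3108 genes passed 2-fold. All 21 lower genes and 27 of the 32 higher ones had the same sign there, but only 13 and 6 were past 2-fold. Without the deepest member of the MCD-titled library the counts were 27 and 17, with the filter applied again. The mitochondrial share moves with every value below, as given above.

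Among pericentral genes, Cyp2e1 was higher in the HFHC pool, at 7337 against 1706 CPM (log2 ratio 2.05), and in the outer cells it was at 0.61. Glul was higher at 4015 against 1261 CPM (1.59, 0.97 to 2.47), but without the deepest member, which had none, it was at 0.96, without the cell of 1173 UMIs, which had 13 of the 17, at 3.31, and in the outer cells at 0.07. Rgn stood at 1.43 with 0.01 in the outer cells, Cyp3a11 at 1.13 (1.78 without the cell of 1173 UMIs) with 0.19, and Rnase4 at 1.21 with 0.60. Cyp2c29, a gene of the criterion, stood at 1.04 (0.47 to 1.79) with -0.17 in the outer cells, and Oat, another, at 3.10 (1.80 to 6.74) with 0.84 there, from 148 against 2 UMIs. Cyp1a2 and Gulo, also genes of the criterion, went the other way, at -1.67 (-2.29 to -0.98) and -1.17 (-2.06 to -0.06), with too few UMIs for the filter. Because each cell needed at least 3 UMIs of the 6 genes together, the ratios of these genes depend on one another and are description only. Outer cells gave -1.17 for Cyp1a2 and -0.09 (-0.36 to 0.21) for Gulo. Of 12 tested pericentral genes outside the criterion 5 were at least 2-fold higher and none lower, with a median of 0.63, beside 27.8% of all genes higher and a median of 0.27. Without the deepest member of the MCD-titled library 3 of the 12 were. Among the outer cells 5 of 31 were higher and 2 lower, with a median of 0.01, beside 5.86% and 4.05% of all genes. Members and outer cells thus gave different readings for these genes.

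Several lipid genes were higher in the HFHC pool. Scd1, the desaturase that makes monounsaturated fatty acids, was the gene with the third most UMIs in the 58 members, and stood at 20037 against 7788 CPM (1.35, 1.08 to 1.66), with 0.95 in the outer cells; without the deepest member it was at 0.86, and without the cell that held 38 of its 105 UMIs in the MCD-titled library at 1.75. It was seen in all 58 members, though also in 50.7% of thinned B cells of the HFHC pool. Of the fatty acid oxidation genes driven by PPAR-alpha, 3 of 4 tested were at least 2-fold higher, where 27.8% of all genes were, and 2 of the 4 without the cell of 1173 UMIs. Acadm, the medium-chain acyl-CoA dehydrogenase, stood at 2.26 from 110 against 3 UMIs (1.08 to 4.96), with 1.15 in the outer cells. Over that list in the outer cells 14 of 31 tested were higher and 1 lower, with a median of 0.75, where 5.86% of all genes were higher and the median was 0.05. The same list differed little between zones, with summed ratios of -0.07 and 0.32. Phyh, which breaks down phytanic acid, stood at 1.38 in the members and -0.11 in the outer cells. Fabp1, the fatty acid binding protein, is a hepatocyte gene of the criterion, and its UMIs helped to choose the cells. It stood at 1.26 in the members and -0.03 in the outer cells, and nothing is read from it.

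The summed UMIs of 2 lists, cholesterol synthesis and glucocorticoid-responsive genes, were lower in the HFHC pool, where no gene of either reached the filter in the members. The summed UMIs of the cholesterol synthesis list were 1360 against 2744 CPM (-1.04, -1.57 to -0.43) in the members and at -1.55 (-1.66 to -1.44) in the outer cells, where 5 of 10 tested were at least 2-fold lower, and none higher, beside 4.05% of all genes lower. The glucocorticoid list, led by Pck1, stood at 1385 against 5266 CPM (-1.93, -2.37 to -1.47), with -1.63 in the outer cells. There 4 of 7 tested were at least 2-fold lower and none higher, beside 4.05% of all genes lower. Without Pck1 its sum stood at -1.48 (-2.02 to -0.89) in the members and -1.39 in the outer cells. Pck1 itself gave 22 UMIs in the 58 cells and 30 in the 8 (282 against 2225 CPM), and -2.08 in the outer cells. Hamp, the iron hormone hepcidin, gave 1 UMI in the 58 cells against 34 in the 8, a log2 ratio of -6.66 (-12.96 to -5.04), and -5.09 in the outer cells from 70 against 408 UMIs, and was under the filter in the members.

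Some secreted proteins were lower in the HFHC pool. Serpina1e, an alpha-1-antitrypsin copy, stood at 1475 against 11941 CPM (-3.01, -3.37 to -2.66), and at -2.48 in the outer cells, although 18.8% of the 50-base words at its end occur in other genes. Of 18 tested plasma protein genes 1 was at least 2-fold higher and 5 lower, with a median of -0.53, where 18.3% of all genes were lower, a share too near for so few genes to set the list apart. Among the outer cells 1 of 37 was higher and 5 lower, with a median of -0.30, where 4.05% of all genes were lower. Trf, the iron carrier transferrin, stood at -1.60 with -0.50 in the outer cells, and Serpina3k at -1.45 with -0.72. Alb, whose UMIs helped to choose the cells in both readings, stood at -0.33 (-0.47 to -0.18) and 0.40, and nothing is read from it. Among urinary proteins Mup7, Mup17 and Mup11 stood at -2.20, -1.60 and -1.51, with -1.71, -1.35 and -1.06 in the outer cells. Without the cell of 1173 UMIs Mup17 stood at -0.46 and Mup11 at -0.75, under 2-fold. Mup20 stood at 1.65 in the members and -0.22 in the outer cells.

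**Figure D5:**
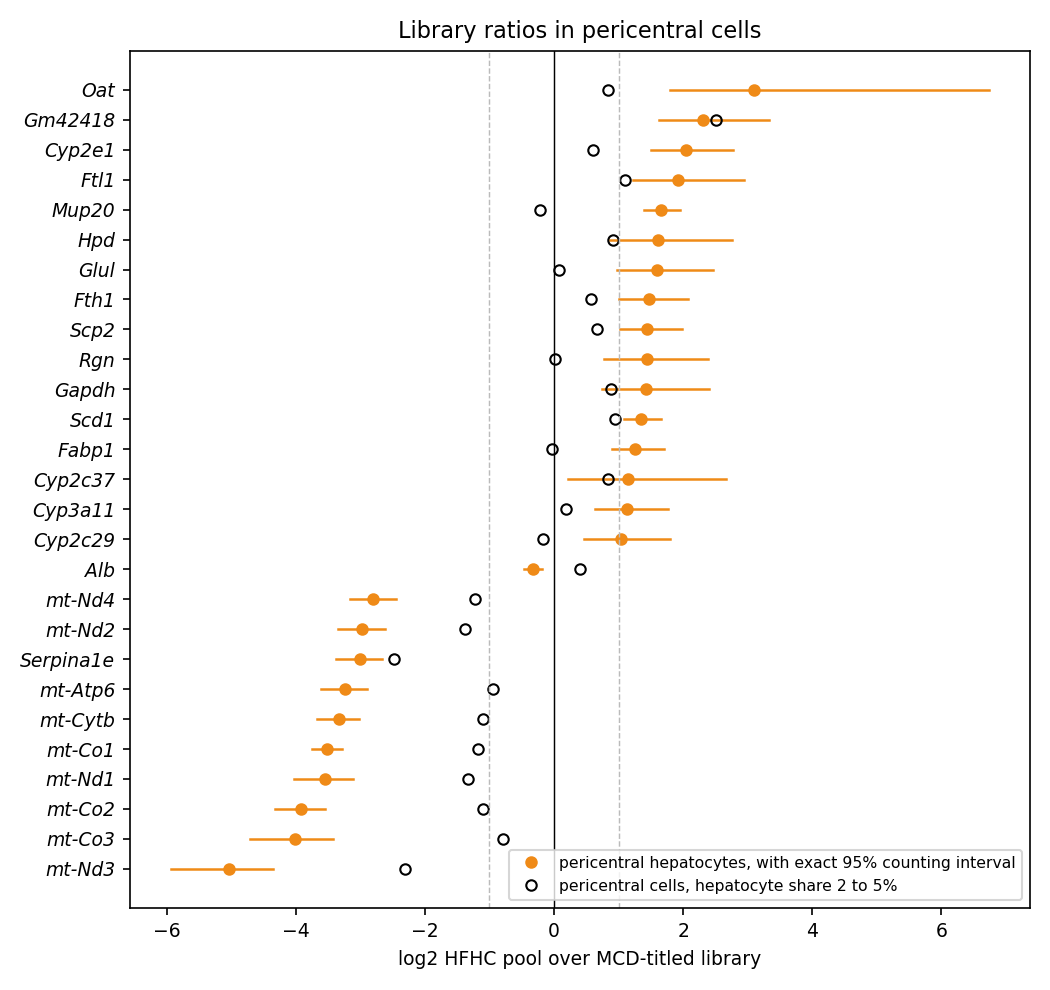
Filled points give log2 of HFHC pool over MCD-titled library for pericentral hepatocytes, with exact 95% counting intervals, and open points the same in pericentral cells with a hepatocyte share of 2 to 5%; dashed lines mark 2-fold. Mitochondrial genes and Serpina1e are lowest, with mt-Nd3 at -5.03 (-3.64 without the deepest cell of the MCD-titled library), while Glul, Rgn, Fabp1 and Mup20 lie past 2-fold in the filled points and near 0 in the open ones. Fabp1, Alb, Oat, Cyp2c37 and Cyp2c29 are genes of the criterion and are description only.

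Mitochondrially encoded genes took 9 of the 10 lowest ratios among genes that passed the filter, with Serpina1e the other, and 9 of 9 tested were at least 2-fold lower in the HFHC pool, beside 18.3% of all 115 genes and 12 of the 106 others (11.3%), from mt-Nd3 at -5.03 (-5.94 to -4.35) to mt-Nd4 at -2.80. The deepest cell of the MCD-titled library, in which these genes took 20.3% of UMIs, held 77 of the 101 UMIs of mt-Nd3 there. Without it all 9 stayed past 2-fold, from mt-Nd3 at -3.64, mt-Co2 at -3.19 and mt-Co3 at -2.96 to mt-Nd4 at -2.62. Their summed level was 12661 against 131054 CPM, a log2 ratio of -3.37, and -1.17 in the outer cells. All of the 50-base words at the ends of mt-Co1 and mt-Co2 occur in other annotated genes, so that the counts of single genes are uncertain. At the other end, among genes with at least 10 UMIs in each library, stood Gm42418, which overlaps a ribosomal RNA repeat, at 2.31 with 2.51 in the outer cells. The ferritin genes Ftl1 and Fth1 stood at 1.92 and 1.48 with 1.09 and 0.57. Hpd, of tyrosine breakdown, stood at 1.61 with 0.91, Scp2, a sterol carrier, at 1.45 with 0.66, and Gapdh at 1.42 with 0.89. The ends of Ftl1, Scp2 and Gapdh are shared with other genes in 75.5%, 81.8% and 87.7% of their words.

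Within the HFHC pool, Glul was unevenly spread over the members. It was at 0 in 32 of 58 cells, at 1 to 2 UMIs in 7, at 3 to 9 in 8 and at 10 or more in 11, and these 11 cells held 257 of the 313 UMIs (82.1%). The 26 cells with a Glul UMI and the 32 without had medians of 1060 and 1008.5 UMIs and means of 1538 and 1187, so that the cells with Glul were deeper on average. Oat, Cyp2c37, Cyp1a2 and Cyp2c29 are genes of the criterion, so their counts helped to choose the members and describe the split only. Oat was higher in the cells with Glul, with 117 against 31 UMIs (log2 ratio 1.81, 1.26 to 2.46), and 14 of the 15 UMIs of Slc1a2 lay in them. Cyp2c37 stood at 1.35 (0.73 to 2.07), Cyp2e1 at 0.88 (0.63 to 1.14), Cyp1a2 at 0.85 (0.08 to 1.74) and Cyp2c29 at 0.39 (0.04 to 0.76). Cyp3a11 was not higher in them, at -0.26 (-0.55 to 0.03), nor were Alb at 0.04 and Scd1 at -0.07. Ass1 and Arg1 were lower, at -0.80 (-1.51 to -0.15) and -0.81 (-1.65 to -0.06). A single cell of 3297 UMIs, the one with most Glul UMIs, held 8 of the 14 UMIs of Slc1a2 and 28 of the 74 of Cyp2c37 in the cells with Glul. Without it Slc1a2 stood at 1.86 (-0.41 to 8.16) in place of 2.83, Cyp2c37 at 0.80 (0.10 to 1.56) and Oat at 1.68 (1.11 to 2.34). The intervals of Cyp1a2, at 0.66 (-0.18 to 1.57), Cyp2c29, at 0.25 (-0.12 to 0.63), and Arg1, at -0.75 (-1.60 to 0.01), then took in 0. That of Cyp3a11, at -0.31 (-0.62 to -0.01), no longer did.

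The outer cells of the HFHC pool, 596 with Glul and 380 without, gave ratios of the same sign for most of these genes. Oat stood at 1.45 (1.35 to 1.56), Slc1a2 at 2.28 (1.71 to 3.02), Cyp2a5 at 1.43 (1.07 to 1.84) and Cyp1a2 at 0.90 (0.69 to 1.13), and all 27 UMIs of the Wnt target Nkd1 lay in cells with Glul. Cyp2c29 was even at 0.04 (-0.07 to 0.15) and Cyp3a11 at 0.07 (-0.05 to 0.19), while Ass1 stood at -0.44 (-0.54 to -0.33). Cyp2c37 and Cyp2e1 stood at 0.12 and 0.18. Scd1, which was even in the members, was lower at -0.46 (-0.51 to -0.42), and the periportal rule gene Cyp2f2 was higher at 0.98 (0.38 to 1.71), from 104 against 25 UMIs. The criterion allows more periportal UMIs in a cell with more pericentral ones, so that the value of Cyp2f2 is description only. The cells with Glul were somewhat deeper here, at a median of 1422 against 1221 UMIs. In the MCD-titled library 4 members had a Glul UMI and 4 had none, too few to describe a division.

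The outer cells of the MCD-titled library, 162 with Glul and 119 without at medians of 846.5 and 1046 UMIs, resembled this for some genes and not for others. Oat stood at 1.97 (1.66 to 2.32), Cyp2c37 at 1.85 (1.15 to 2.73) and Cyp2e1 at 0.71 (0.53 to 0.90), and all 36 UMIs of Slc1a2 lay in cells with Glul. Ass1 and Arg1 stood at -0.88 and -1.05. Unlike in the HFHC pool, Cyp3a11 was higher in the cells with Glul, at 1.22 (0.91 to 1.56). Scd1 was lower, at -1.23 (-1.40 to -1.07). The differences between the libraries were not tested.

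Transcripts of other liver cells were present at low counts in the members, and their part in the library ratios was not tested. The criterion itself limited Ptprc, Clec4f, Vsig4 and Ptprb, so that low counts of leukocyte, Kupffer and endothelial cells were partly set in advance. B cell markers gave 0 UMIs in the MCD-titled library and 26 in the HFHC pool (333 CPM, against 88983 CPM in B cells), of which Igkc gave 21. T and NK cell markers gave 0 and 18 UMIs, monocyte and dendritic cell markers 0 and 16, and Kupffer cell markers 6 and 27 UMIs, from 3 and 9 of 10 genes. Endothelial markers gave 4 and 1, cholangiocyte markers 3 and 1, erythroid markers 1 and 5, neutrophil markers 3 and 0 and stellate cell markers 0 and 1. Of the chitinase-like genes that gave the study its subject, the 66 members held 1 UMI, of Chil3. The 2 libraries shared 756 cell indexes, none of them among the members, and Scrublet called none of the members a doublet.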

How the data were processed

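BD Rhapsody whole-transcriptome tables of 2 libraries were used. The deposited counts are UMIs of each gene in each cell, which the authors obtained with version 1.10.1 of the BD Rhapsody WTA Analysis Pipeline (per the file headers) on GRCm38 with GENCODE vM19, with UMIs error-corrected and cells called from mRNA by the refined algorithm. The library titled MCD was tied to its table by elimination. The study's own analysis used Seurat. The tables hold 53720863 and 71981673 UMIs, all whole numbers. The third sample, the sample tags of the HFHC pool, was not used here, and 0 columns were left unmapped.

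Cells were chosen in Python 3.11.15 (numpy 2.4.6, scipy 1.17.1) by the criterion in the report. Periportal hepatocytes met the same limits with the gene sets exchanged, and B cells had at least 3 UMIs of Cd79a, Cd79b, Ms4a1 and Ebf1. The UMIs of a gene were added up over the cells of a class and expressed as CPM. A log2 ratio was formed after adding 1 UMI to either sum, for genes reaching 100 UMIs together, and called means past 2-fold. Sums have exact Poisson, shares exact binomial (Clopper-Pearson) and ratios exact conditional binomial 95% intervals, from counts with no UMI added. No p-value is given. The calculation was tested on simulated data. Genes named are those of the criterion and of written lists, the 10 highest and 10 lowest library ratios with at least 10 UMIs in each library, and the 10 highest and lowest by the smaller zone ratio of the 2 libraries. Some genes that this rule takes in are not reported here. Hamp, Gsta3, Cyp2d26 and Cyp7a1 were named after their values were seen. Members and lists were chosen with earlier results of these data known. Near-identical ends were counted as 50-base words of the last 400 bases of each gene found in another gene (GENCODE vM21). Promoters come from RefSeq (GRCm38.p6). Alternatives changed the criterion, cell filters, depth, doublets (Scrublet in scanpy 1.11.5, scikit-image 0.26.0), cell weights, scaling and gene filter. Hepatocyte shares of 2 to 5%, no mitochondrial limit, leaving out the deepest member, leaving out the member with most UMIs of a gene or of Glul, and leaving out Pck1, were chosen after seeing the data. Figures used matplotlib 3.10.9.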

Additional observations from a re-analysis of the deposited data

Results flagged for a closer look

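In 5 genes the zone ratio was past 2-fold in opposite directions in the 2 libraries, and their counting intervals did not meet. The difference between the libraries was not tested. Cp, the copper-carrying ferroxidase ceruloplasmin, stood at a log2 ratio of 1.24 (0.49 to 1.80) in the MCD-titled library, from 23 against 215 UMIs, and at -1.92 (-2.92 to -1.22) in the HFHC pool, from 14 against 160. In the outer cells Cp stood at -0.55 and 0.59, the other way round in both. Insig2, which holds back cholesterol synthesis, stood at -1.04 (-4.68 to 0.27) from 2 against 130 UMIs and at 1.55 (0.99 to 2.12) from 56 against 54, with 0.38 and 0.92 in the outer cells. The mitochondrially encoded mt-Co2, mt-Co3 and mt-Nd3 stood at 1.08, 1.38 and 1.40 in the MCD-titled library and at -1.48, -1.61 and -1.52 in the HFHC pool. Without the deepest member of the MCD-titled library the ratios of mt-Co2, mt-Co3 and mt-Nd3 there were 0.35, 0.33 and 0.01, and that of Cp, with 11 of its 23 UMIs in that cell, was 0.99. Insig2 rests on 2 UMIs there. In 4 of the 5 genes the call in the MCD-titled library thus goes with 1 cell.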

How the results depend on the processing

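No paired analysis was possible because each group is 1 library. Of 2635 ratios of single genes under alternatives, 2299 stayed within their counting interval, 320 moved past it and 16 turned sign from a ratio of at least 2-fold. The 2299 take in settings that could not change a ratio here. These were both changes of the gene filter and the removal of Scrublet doublets, with 185 ratios each. Signs that turned from smaller ratios were not counted apart. Of 114 counts and shares 82 were labelled the same, which does not mean unchanged. The label took in 24 in place of 32 genes higher in the HFHC pool with at least 1000 UMIs per cell. It also took in a pericentral share of 12.2% in place of 15.6% in the HFHC pool after thinning. Leaving out the member with most UMIs of a gene, in each library in turn, gave a further 236 ratios. Of these 32 moved past their interval and 0 turned sign from a ratio of at least 2-fold. The cause of the moves was not tested. Against 32 higher and 21 lower genes in the HFHC pool than in the MCD-titled library, thinning to 1000 UMIs gave 13 and 7, a gene filter of 20 UMIs 139 and 106, no gene filter 286 and 3475, and a hepatocyte share of 2% 196 and 127, while scaling by the median ratio gave 19 higher. Against 26 and 40 between zones in the HFHC pool, no upper limit on genes gave 60 and 69, thinning 11 and 10, a filter of 20 UMIs 187 and 194, no filter 2196 and 842, and a share of 2% 333 and 126. Against 28 and 36 in the MCD-titled library, thinning gave 7 and 13, a filter of 20 UMIs 400 and 134, no filter 7234 and 134, at least 5 pericentral UMIs 18 higher, a share of 2% 56 higher, and the mean over cells 56 lower. The sums compared differ in size, so with few UMIs of a gene the 1 added UMI alone can put its ratio past 2-fold. The counts with no filter or a filter of 20 UMIs are thus partly set by the calculation and give no number of differing genes. The pericentral share of hepatocytes was 10.8% in the HFHC pool with at least 5 pericentral UMIs, 10.4% in the MCD-titled library at a hepatocyte share of 2%, and 0% in both at 10%, where no ratio could be computed. Among ratios of at least 2-fold, the sign turned at a share of 2% for Cp (-0.55 in the MCD-titled library, 0.28 in the HFHC pool), Insig2 (0.25), Gamt (0.10) and Cyp2d26 (-0.10) in the MCD-titled library, for Cyp2c29 (-0.10) and Phyh (-0.07) between libraries, for mt-Co2 in the MCD-titled library (-0.07), and in the zones of the HFHC pool for mt-Atp6 (1.11), mt-Co1 (1.05), mt-Co2 (1.03), mt-Co3 (1.02), mt-Cytb (1.05), mt-Nd2 (1.22) and mt-Nd3 (0.89). Smaller ratios that turned sign, such as those of mt-Nd1 and mt-Nd4 in the zones of the HFHC pool, are not listed. As a mean over cells Insig2 in the MCD-titled library was at 0.44. With 8 cells and 13483 UMIs, the depth of the MCD-titled library limits every comparison that uses it.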

Other observations

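Bile acid genes, which the pericentral end of the lobule is known for, were mostly under the filter in the members, where 2 and 4 were tested between zones and Slco1b2 in the HFHC pool passed 2-fold. Cyp7a1, the rate-limiting enzyme of bile acid synthesis, gave 1 UMI in the 8 members and 9 in the 58, and in the outer cells 16 and 216 UMIs (52.6 and 120 CPM), against 5.15 and 5.12 CPM in the outer periportal cells. Over the bile acid list 11 of 20 tested genes were at least 2-fold higher in the outer pericentral than in the outer periportal cells of the HFHC pool, with a median of 1.21, and none was lower, where over all genes 5.6% of 5852 were higher. In the MCD-titled library 1 of 9 was higher, with a median of 0.06, where over all genes 2.3% of 2042 were higher.

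Heme synthesis genes, which supply the cytochromes P450, had a log2 ratio of the summed list, pericentral over periportal, of -0.26 (-1.55 to 0.55) and 0.31 (-0.05 to 0.65) in the members. In the outer cells the list stood at 0.78 (0.63 to 0.93) in the MCD-titled library and 0.40 (0.34 to 0.46) in the HFHC pool. There 2 of 6 and 2 of 9 tested genes were at least 2-fold higher and none lower, where over all genes 2.3% and 5.6% were higher.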
